A study of Mus musculus with 18 samples.

Results

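The comparison described here sets the lungs of 4 mice given the highest dose of a mixture of polycyclic aromatic hydrocarbons, 50 mg BaP equivalents per kg body weight and day, against those of 5 mice given the olive oil vehicle. These 9 mice were chosen by their labelled dose from the 18 of the series, and the comparison runs across all 55681 probes of the array that are not controls. The mixture holds benzo(a)pyrene (BaP), benz(a)anthracene, benzo(b)fluoranthene and chrysene. All mice were adult male Muta™Mouse of about 12 weeks, a transgenic line on a BALB/C-DBA/2 background that carries a reporter for scoring mutations, and they were housed alone under a light/dark cycle of 12 h. They were gavaged daily for 28 days, and the lung was taken 72 h after the last dose. The hour of the day at which tissue was taken is not given in the sources used here. The other groups, 4 mice at 12.5 mg (the low dose) and 5 mice at 25 mg (the medium dose) of the same equivalents, enter the fit and are used only to place the high dose among them.

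Polycyclic aromatic hydrocarbons enter the cell and bind the aryl hydrocarbon receptor (AHR), a ligand-activated transcription factor that pairs with Arnt and switches on enzymes of the CYP1 family. These enzymes, together with epoxide hydrolase, convert some of these hydrocarbons to diol epoxides that bind covalently to DNA. Bulky DNA adducts block replication and transcription, and the resulting damage signals stabilise the transcription factor p53, whose targets halt the cell cycle, assist repair or start cell death. The lung expresses CYP1 enzymes and is a tumour site of these hydrocarbons in the mouse.

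Each value below is the log2 ratio of lung RNA, labelled with Cy5, to a pool of RNA from mouse cell lines sold as Universal Mouse Reference RNA, labelled with Cy3, on the array of 1 mouse. A value of 0 therefore means a level equal to that in the reference pool, and an increase of 1 is a doubling. Vehicle mice carry the numbers 1 to 5 and high-dose mice the numbers 16, 17, 18 and 20, and values are listed in that order. A probe was called where the limma adjusted p (Benjamini-Hochberg over all probes) was at most 0.05 and the change was at least 1.5-fold. Where a gene had several probes, the brightest stands for it. The arrays were of similar quality, with a median Cy5 intensity between 110 and 142 and 51.5 to 61.1% of the probes well above background. Precision is limited by how many arrays there are. They lay on 3 slides, and each slide held vehicle and high-dose mice (mice 1, 2, 16 and 17, then 3, 4 and 18, then 5 and 20), so each difference could also be taken within a slide, but arrays of 1 dose shared a slide column, and column and dose cannot be told apart. Lung marker lists were well measured: all 20 alveolar type 2, all 17 airway secretory and 23 of 25 motile cilia genes passed the background filter, against 11 of 20 cardiomyocyte genes of the pulmonary vein.

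At the high dose 670 probes were called against the vehicle, which is 1.2% of those tested. Of these, 222 were higher (0.399% of the probes) and 448 were lower (0.805%). Among the 20660 genes that could be named, 312 were called (1.51%), 152 of them higher (0.736%) and 160 lower (0.774%). Large changes were few: 35 genes were called at least 2-fold higher and 20 at least 2-fold lower, and 4 and 2 genes passed 4-fold. All 312 genes kept their sign within each of the 3 slides, which their selection on these same arrays made likely. Of them, 196 were called in every one of the 9 fits that left out 1 vehicle or high-dose mouse. Gene lists are used below to describe groups: 40 lists held 763 measured genes, of which 74 were called and 51 of these in all 9 fits. Without any fold limit, an unadjusted p under 0.05 was found for 12.1% of the genes on the higher and 7.9% on the lower side, and in 6.17% and 4.55% of the genes every high-dose mouse lay above or below every vehicle mouse. The 2 directions did not rest equally on the normalization. The lower probes were brighter, with a median log2 intensity of 10.03 against 8.61 for the higher probes and 6.63 for all probes. When arrays were centred on their median in place of loess, 80 probes were called, 69 of them higher and 11 lower, and the median change of the lower probes went from -0.73 to -0.52, while the median over all named genes went from 0.02 to 0.10.

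**Figure D1:**
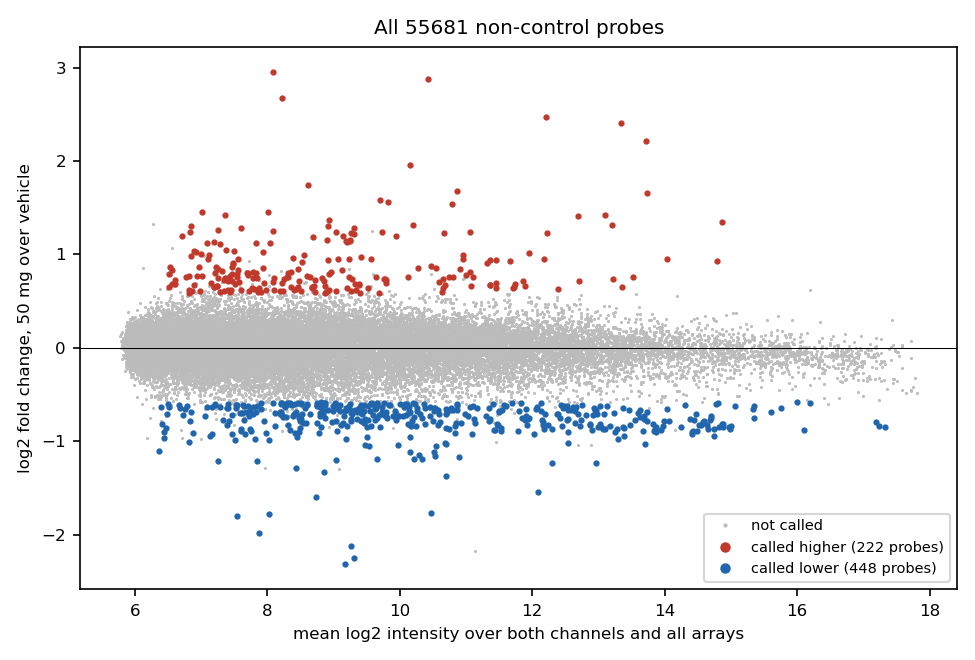
Each point is a non-control probe, with its mean log2 intensity over both channels and all arrays on the x axis and its log2 fold change, 50 mg over vehicle, on the y axis. The 222 probes called higher and the 448 called lower are coloured, and the lower ones reach further into the bright end of the scale.

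The genes that rose furthest at the high dose included p53 targets (Gdf15, Cdkn1a), enzymes of xenobiotic metabolism (Ces2e) and the clock output gene Dbp, beside genes of none of these lists such as Mmrn2 and Celf5. Those that fell furthest included granzyme A, the chemokine Cxcl5, the carbonic anhydrase Car14, the matrix gene Spon2 and the clock activator Arntl. In the plot of the 30 leading genes, 15 in each direction, every high-dose mouse lay beyond every vehicle mouse, which the choice of these genes fixed. The 15 rises ran from Ephx1 (log2 fold change 1.35) to Gdf15 (2.88), and the 15 falls from Chd2 (-1.12) to Gzma (-2.25). With median centring all 15 rises were still called but only 3 of the 15 falls, those of Car14, Arntl and Lhfpl3.

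**Figure D2:**
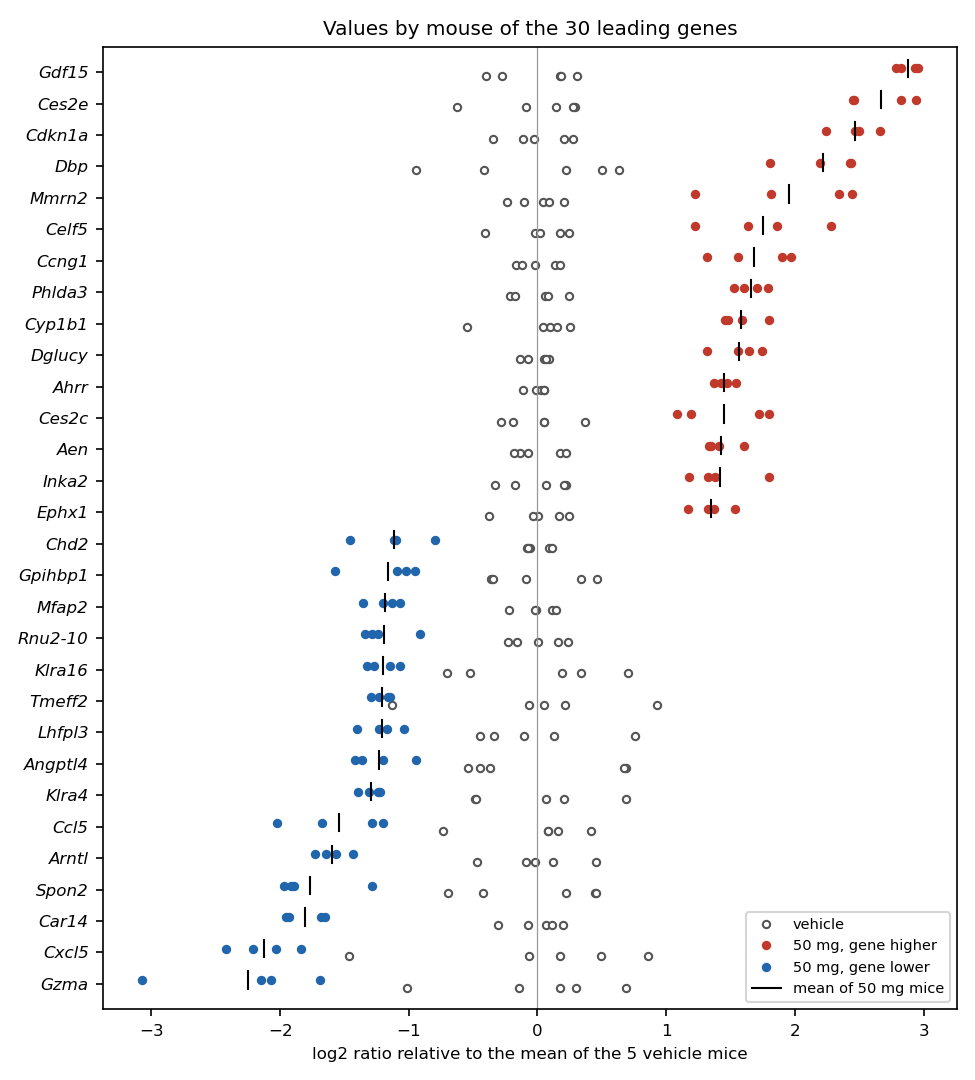
Open circles are the 5 vehicle mice and filled circles the 4 mice at 50 mg, each as the log2 ratio relative to the vehicle mean of that gene; the black tick is the mean of the high-dose mice. Gdf15 heads the rises at 2.88 and Gzma the falls at -2.25, and the vehicle mice of Dbp, Cxcl5, Gzma and Tmeff2 are spread more widely than those of Ahrr or Chd2.

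Targets of p53 gave the list with the most called members. Of 21 genes in a list of p53 targets that act in growth arrest, with p53 and its regulators, 11 were called higher and 2 lower (background 0.736% and 0.774% of all genes), with a median log2 fold change of 0.67 against 0.02 over all genes. Cdkn1a, which encodes the cyclin-dependent kinase inhibitor p21, was -0.51, -1.06, -0.74, -0.45 and -0.83 in vehicle mice and 1.78, 1.52, 1.94 and 1.75 in high-dose mice. The groups were far apart, with a log2 fold change of 2.47 (5.53-fold, standard error 0.13, limma adjusted p = 2.08e-10), and the second Cdkn1a probe gave 2.96. Gdf15, a secreted stress cytokine of the TGF-beta family, was -1.79, -2.37, -1.66, -1.78 and -2.24 in vehicle and 0.97, 0.82, 0.99 and 0.86 in high-dose mice. Its rise was 7.34-fold, the highest when each gene is read by its brightest probe, and the high-dose mice lay close together. Ccng1, cyclin G1, was -0.85, -0.69, -1.0, -0.66 and -0.95 in vehicle and 1.14, 0.73, 1.07 and 0.48 in high-dose mice (3.21-fold, adjusted p = 5.42e-08). Phlda3, an inhibitor of Akt signalling, was 0.47, 0.02, 0.29, 0.31 and 0.05 in vehicle and 1.93, 1.75, 2.02 and 1.83 in high-dose mice (3.15-fold, adjusted p = 2.12e-09). None of these 4 genes overlapped between the groups, a condition under which they were chosen.

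The other members called higher were Dglucy (log2 fold change 1.57), Zmat3 (1.23), Trp53inp1 (1.23), Plk2 (0.95), Psrc1 (0.76), Mdm2 (0.71) and Sesn2 (0.67). Zmat3 encodes an RNA-binding zinc finger protein, Plk2 a polo-like kinase, Mdm2 the ubiquitin ligase that degrades p53, and Sesn2 a sestrin that restrains mTORC1. The 8 members that were not called lay between 0.02 and 0.54. Mdm2 and Sesn2 lost their call with median centring. The 2 members called lower were p53 itself and its partner regulator. Trp53 was -1.24, -1.36, -1.07, -1.12 and -0.99 in vehicle and -2.02, -2.00, -1.50 and -1.52 in high-dose mice, a fall of 0.61 on the log2 scale (limma adjusted p = 0.00834), and Mdm4, an Mdm2 relative that binds p53, changed by -0.70 (adjusted p = 0.00461). Trp53 was no longer called without high-dose mouse 16 (or 17) or vehicle mouse 3 (or 5), nor with median centring, the Cy5 channel alone or the slide as a block, and Mdm4 was not called with median centring or the Cy5 channel alone.

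Among 16 p53 targets that promote cell death, 4 were called higher and none lower, with a median log2 fold change of 0.38, and 10 had an unadjusted p under 0.05 on the higher side. Aen, an exonuclease that takes part in apoptosis, was -0.31, -0.57, -0.27, -0.63 and -0.67 in vehicle and 1.11, 0.84, 0.86 and 0.92 in high-dose mice, and its second probe gave the same change (1.42 and 1.41). Bax, the pore-forming protein of the mitochondrial outer membrane, was -2.18, -1.71, -1.83, -2.23 and -1.81 in vehicle and -0.20, -0.80, -1.10 and -0.75 in high-dose mice (2.36-fold, adjusted p = 0.00094). Bax was highest in high-dose mouse 16 and no mouse of the 2 groups overlapped. Rps27l, a ribosomal protein relative, rose by 0.93 and Tnfrsf10b, a death receptor, by 0.73. Both lost their call with median centring. The 12 members not called lay between -0.12 and 0.49, with Bcl2l11, a BH3-only protein, the lowest.

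The promoters of these genes were read from the RefSeq table (build GRCm38.p6) as the 250 bases before the start, on the strand of the gene, and are shown because they belong to rises that are among the clearest. A p53 half-site, the 10-base unit of which p53 binds a pair, was searched on both strands. It was found in at least 1 promoter of 6 of the 12 genes called higher in these lists that have a promoter in the table, and in 8.2% of the 27025 genes of the table. Genes with and without a half-site both rose: Phlda3, Plk2 and Gdf15 have none in this window. Of the 2 genes called lower, Trp53 has 1 and Mdm4 has none. Capitals mark the half-sites.
Cdkn1a, chr17:29090729-29090978, plus strand: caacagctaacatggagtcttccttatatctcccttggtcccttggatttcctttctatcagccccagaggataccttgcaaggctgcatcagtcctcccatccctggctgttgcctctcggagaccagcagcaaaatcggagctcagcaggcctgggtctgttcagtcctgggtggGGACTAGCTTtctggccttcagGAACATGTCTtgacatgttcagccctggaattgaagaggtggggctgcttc
Ccng1, chr11:40755287-40755536, minus strand: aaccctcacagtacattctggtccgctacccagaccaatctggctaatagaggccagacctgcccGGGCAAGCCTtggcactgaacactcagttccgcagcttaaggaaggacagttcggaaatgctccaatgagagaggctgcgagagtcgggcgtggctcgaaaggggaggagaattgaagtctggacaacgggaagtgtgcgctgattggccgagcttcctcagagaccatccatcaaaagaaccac
Bax, chr7:45466899-45467148, minus strand: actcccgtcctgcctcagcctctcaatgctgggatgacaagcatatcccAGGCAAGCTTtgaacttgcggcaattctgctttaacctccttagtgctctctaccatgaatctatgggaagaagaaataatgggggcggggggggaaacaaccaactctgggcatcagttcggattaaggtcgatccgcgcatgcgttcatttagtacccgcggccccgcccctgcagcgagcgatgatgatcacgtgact
Aen, chr7:78895808-78896057, plus strand: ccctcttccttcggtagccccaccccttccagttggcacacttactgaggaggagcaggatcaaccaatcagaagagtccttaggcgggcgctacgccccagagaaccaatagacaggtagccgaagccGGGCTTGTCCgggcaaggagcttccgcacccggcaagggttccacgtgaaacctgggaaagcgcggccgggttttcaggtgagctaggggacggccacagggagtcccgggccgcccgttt
Cdkn1a has a second start in the table whose window holds none, and in the window shown its 2 half-sites lie at 73 to 64 and at 51 to 42 bases before the start. The half-sites of Ccng1, Bax and Aen begin 185, 201 and 121 bases before the start. A match of letters is a description of the sequence and no measure of binding.

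Of 28 genes of DNA repair and nucleotide supply, 4 were called higher and none lower, against 0.736% and 0.774% of all genes, and the median log2 fold change was 0.14. Polk, a polymerase that copies past bulky adducts, was -0.30, -0.53, -0.77, -0.86 and -0.80 in vehicle and 0.58, 0.38, -0.07 and 0.35 in high-dose mice, which is 1.95-fold higher (limma adjusted p = 5.93e-05). Rev1, the scaffold of translesion synthesis, rose by 0.63 and Mgmt, which removes alkyl groups from guanine, by 1.00. A second Polk probe gave 0.34. Rev1 lost its call without high-dose mouse 17 and Mgmt without mouse 16, and both lost it with median centring. The 10 genes of nucleotide excision repair in the list, the pathway that removes bulky adducts, lay between -0.17 and 0.42 and none was called. Ercc3 (0.42, limma adjusted p = 0.00893) and Ercc6 (0.41, adjusted p = 0.00634) passed the adjusted p but not the fold limit, whereas Xpc was at 0.14. This subset was singled out after its values were seen. No mitosis gene of 25 and no DNA replication gene of 25 was called. Their medians were 0.14 and 0.16, between Bub1 (-0.12) and Birc5 (0.47) for mitosis and between Tk1 (-0.15) and Gins1 (0.53) for replication. For replication genes 10 of 25 had an unadjusted p under 0.05 on the higher side, and 3 were called without vehicle mouse 3, 1 without high-dose mouse 18 and 3 with the scanner software's ratios.

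AHR targets split into some that rose and many that did not. In the list of AHR, its partners and its target battery, 2 of 15 genes were called higher and none lower, with a median of 0.12. Cyp1b1, which oxidises aromatic hydrocarbons outside the liver, was -1.60, -1.55, -1.45, -2.25 and -1.65 in vehicle and -0.11, 0.10, -0.24 and -0.22 in high-dose mice (2.99-fold, limma adjusted p = 3.55e-06). Ahrr, the repressor that competes with AHR for Arnt, was -0.76, -0.67, -0.63, -0.60 and -0.61 in vehicle and 0.89, 0.82, 0.72 and 0.77 in high-dose mice. Its groups were narrow and far apart (2.74-fold, adjusted p = 7.45e-10), although its probe was well above background on only 1 of the 5 vehicle arrays and a second, dimmer probe gave 0.17. Cyp1a1, the classical AHR target, was 1.59, 0.82, 0.60, 0.37 and 1.65 in vehicle and 2.02, 3.13, 2.40 and 0.76 in high-dose mice. Its groups overlapped, as high-dose mouse 20 lay among the vehicle mice. The log2 fold change of Cyp1a1 was 1.07 (standard error 0.33, adjusted p = 0.0773), it was 1.37 and 1.92 within the first 2 slides and -0.89 within the slide of mice 5 and 20, and without mouse 20 it was 1.51 (adjusted p = 0.00311). The other 12 members, with Aldh3a1 the lowest, lay between -0.28 and 0.25.

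The core of the AHR response element, GCGTG on either strand, is common: 30.9% of the genes in the table have it within 250 bases before a start. Both called AHR genes have it, and their windows are shown with the core in capitals, 1 copy in Cyp1b1 and 3 in Ahrr.
Cyp1b1, chr17:79715062-79715311, minus strand: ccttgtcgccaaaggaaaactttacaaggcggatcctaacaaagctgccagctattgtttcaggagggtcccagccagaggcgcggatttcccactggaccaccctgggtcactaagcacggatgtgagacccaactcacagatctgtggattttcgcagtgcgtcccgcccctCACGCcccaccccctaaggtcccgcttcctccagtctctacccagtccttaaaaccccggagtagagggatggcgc
Ahrr, chr13:74292332-74292581, minus strand: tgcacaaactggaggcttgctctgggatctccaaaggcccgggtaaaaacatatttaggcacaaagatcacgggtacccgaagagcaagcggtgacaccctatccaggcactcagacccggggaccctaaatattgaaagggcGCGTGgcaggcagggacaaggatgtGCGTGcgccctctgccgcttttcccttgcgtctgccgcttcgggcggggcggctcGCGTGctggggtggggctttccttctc
In the window shown, the core of Cyp1b1 lies 76 to 72 bases before the start, and those of Ahrr begin at 107, 82 and 27, with a p53 half-site, not capitalised, at 238 to 229. The same core was also found before 7 of the 12 p53 targets called higher, so its presence does not set the AHR genes apart in these windows.

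Some carboxylesterases of the second family (Ces2b, Ces2c and Ces2e) and microsomal epoxide hydrolase rose, while no gene was called in the other lists of phase I and phase II enzymes. Of 23 carboxylesterases, epoxide hydrolases and carbonyl reductases, 4 were called higher and none lower (median 0.14). Ces2e, a serine hydrolase that cleaves esters and amides, was 0.61, 0.23, -0.30, 0.47 and 0.60 in vehicle and 3.14, 2.78, 2.78 and 3.26 in high-dose mice, 6.36-fold higher (limma adjusted p = 1.18e-08), and was similar within the 3 slides (2.54, 2.69 and 2.67). A second Ces2e probe gave 0.41. Ces2c was 0.73, 0.40, 0.49, 1.05 and 0.73 in vehicle and 2.47, 1.87, 1.77 and 2.40 in high-dose mice (2.73-fold), with 0.29 and 0.56 on its other 2 probes, and Ces2b rose by 1.05. The call of Ces2b was lost with the scanner software's ratios and with median centring. Of the other Ces2 genes measured, Ces2g was at 0.21 and not called. Ces2a and Ces2f were well above background on no vehicle or high-dose array. These genes are close relatives in 1 cluster and probes may share target sequence, so the split among them is uncertain. Ephx1, the hydrolase that turns arene epoxides into dihydrodiols, was 1.21, 1.37, 0.83, 1.17 and 1.45 in vehicle and 2.58, 2.53, 2.38 and 2.74 in high-dose mice (2.55-fold, adjusted p = 2.08e-07), and its second probe gave 1.54. No gene was called among 20 CYP2, CYP4 and FMO monooxygenases (from Fmo1 at -0.40 to Cyp4f13 at 0.42) or 22 glutathione S-transferases (from Gstt3 at -0.20 to Gsta2 at 0.53). Nor was any of 18 genes in the list of NRF2, a transcription factor that responds to electrophiles, and its targets (from Hmox1 at -0.39 to Osgin1 at 0.32). The list medians, in this order, were 0.15, -0.02 and -0.05.

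Genes of the circadian clock were called in both of its arms. In the clock, Arntl and Clock drive E-boxes in the Per, Cry, Rev-erb (Nr1d1 and Nr1d2) and PAR bZIP genes, whose products feed back or act on D-boxes. Among 13 repressors and output factors, 7 were called higher and none lower (median 0.69, and all 13 above 0), and among 7 activators with Nfil3, 2 were called lower (median -0.42). Dbp, a PAR bZIP factor, was -0.70, 0.88, -0.17, 0.74 and 0.47 in vehicle and 2.44, 2.67, 2.05 and 2.68 in high-dose mice. The vehicle mice were widely spread and none reached the high-dose range (4.65-fold, limma adjusted p = 4.62e-05). Its second probe gave 2.41. Per2, a repressor of the Clock complex, was 0.68, 1.01, 0.53, 0.78 and 0.61 in vehicle and 2.15, 2.02, 1.79 and 1.92 in high-dose mice (2.38-fold). Arntl, the activator, was 0.61, 0.14, 0.07, -0.31 and 0.28 in vehicle and -1.57, -1.40, -1.28 and -1.48 in high-dose mice (3.02-fold lower, adjusted p = 1.35e-05), and fell within each slide (-1.87, -1.16 and -1.76). Nfil3, which competes with the PAR bZIP factors for D-boxes, fell by 0.82, with -0.93, -1.35, -1.06, -1.37 and -1.10 in vehicle and -2.00, -2.09, -1.81 and -2.03 in high-dose mice.

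Nr1d2 (1.14), Per3 (1.03), Hlf (0.99), Tef (0.95) and Nr1d1 (0.69) were the other repressors and output factors called higher. The call of Nr1d1 was lost in 6 of 9 fits without a mouse (vehicle mice 1, 3 and 5, high-dose mice 16, 17 and 20) and that of Hlf in 4 (vehicle mouse 1, high-dose mice 16, 17 and 20). The activators Clock and Npas2 were both at -0.42 and were not called, with Npas2 well above background on no high-dose array. With median centring 4 of the 7 and, on the lower side, Arntl alone were called. In 13 further rhythmic genes 4 were called higher: Tspan4, a tetraspanin (1.23), Wee1, the kinase that holds back mitosis (0.94), Coq10b, a coenzyme Q binding protein (0.72), and Usp2, a deubiquitinase (0.68). None of these 4 was called with median centring. No glucocorticoid receptor target of 16 was called, with a median of 0.01 between Mt2 (-0.49) and Per1 (0.48), the latter also a clock repressor. The clock repressors and output factors had a list median log2 fold change of 0.69, after 0.70 at the low dose and 0.84 at the medium dose, over the same vehicle mice. Because the hour of collection is not given, dose and hour of collection cannot be told apart for these genes.

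Consensus E-boxes (CACGTG) and D-boxes (TTACGTAA or TTATGTAA, with the reverse strand also read) were searched in the same windows. An E-box was found in 1 of the 6 clock genes called higher that have a promoter in the table, Tef, against 6.86% of all genes, and a D-box in 1, Per3, against 1.1%. Of 2151 E-boxes in the table, 7 overlapped an AHR core, and no D-box did. The windows of these 2 genes are shown with the motifs in capitals.
Tef, chr15:81802423-81802672, plus strand: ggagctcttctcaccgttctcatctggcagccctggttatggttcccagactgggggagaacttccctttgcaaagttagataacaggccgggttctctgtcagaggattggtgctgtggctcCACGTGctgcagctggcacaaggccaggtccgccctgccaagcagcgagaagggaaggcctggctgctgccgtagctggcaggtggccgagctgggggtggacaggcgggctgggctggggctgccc
Per3, chr4:151044666-151044915, minus strand: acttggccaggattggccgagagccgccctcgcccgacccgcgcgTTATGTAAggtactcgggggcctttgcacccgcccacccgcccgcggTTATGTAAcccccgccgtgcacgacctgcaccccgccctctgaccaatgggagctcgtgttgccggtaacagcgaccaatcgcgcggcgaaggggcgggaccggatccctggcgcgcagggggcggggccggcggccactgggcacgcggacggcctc
Tef has a second start with an E-box of its own at 138 to 133 bases before it. The 2 D-boxes of Per3 begin 205 and 158 bases before the start. All 6 clock genes called higher also hold an AHR core and the 2 called lower do not, against 30.9% of all genes with it. The windows of Dbp, Nr1d1 and Nr1d2 hold neither an E-box nor a D-box of these letters, which says nothing of sites outside them, and Per2 has no entry in the table.

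**Figure D3:**
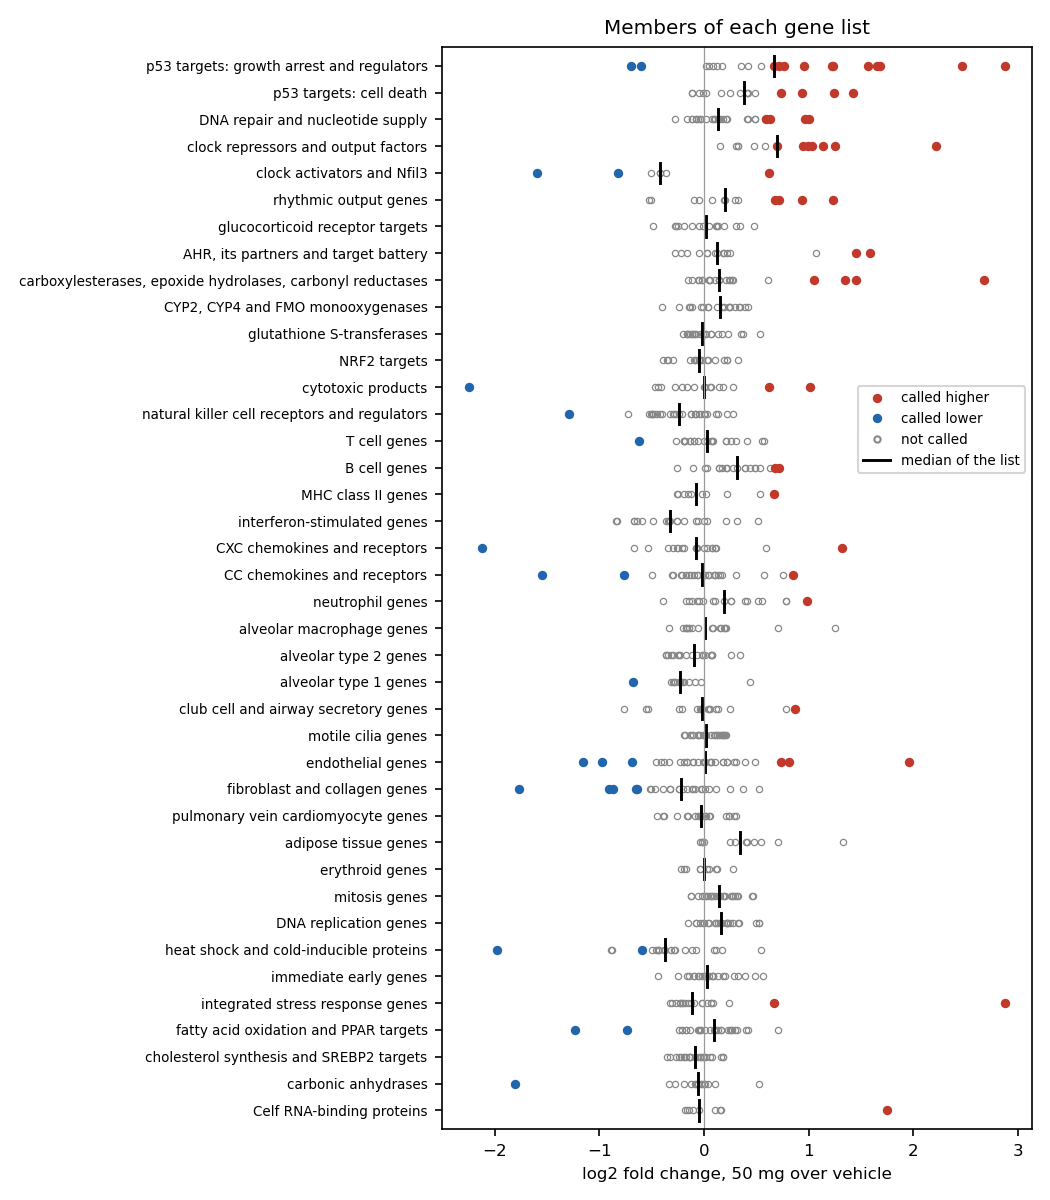
Each row is a gene list and each circle a member, placed by its log2 fold change, 50 mg over vehicle; filled circles were called (red higher, blue lower) and the black tick is the median of the list. The lists of p53 targets and clock output factors are shifted to the right, with medians of 0.67, 0.38 and 0.69, while ciliated cell and cardiomyocyte lists hold no called member.

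Single genes of cytotoxic lymphocytes were called lower, and Gzma had the largest fall of the leading genes. In whole lung, fewer cells of a type and less RNA per cell cannot be told apart. Gzma, granzyme A, a serine protease of natural killer (NK) and cytotoxic T cells, was 5.46, 4.95, 4.63, 3.75 and 5.07 in vehicle and 3.08, 1.70, 2.70 and 2.62 in high-dose mice, 4.74-fold lower (limma adjusted p = 0.00208). Vehicle mouse 4 was the lowest of its group and high-dose mouse 17 the lowest of all. Ccl5, a chemokine that attracts T cells and NK cells, was -0.02, -0.35, -0.35, -1.17 and -0.27 in vehicle and -2.10, -2.45, -1.63 and -1.71 in high-dose mice, 2.92-fold lower. Klra4, an NK cell receptor of the Ly49 family, was -0.21, -0.83, -1.39, -1.37 and -0.69 in vehicle and between -2.29 and -2.12 in high-dose mice (2.45-fold lower), and Klra16 of the same family was 2.30-fold lower. The Ly49 genes are near-identical in parts and the other 2 Klra16 probes gave -0.53 and 0.02, so the split among them is uncertain. The 4 falls were smallest within the second slide, which held vehicle mice 3 and 4 (Gzma -1.49, Ccl5 -0.88, Klra4 -0.76, Klra16 -0.46), and none of them was called with median centring, where the values were -1.92, -1.21, -1.10 and -0.97 in the same order.

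Among 31 NK cell receptors and regulators, 1 (Klra4) was called lower and none higher, but 24 lay below 0 with a median of -0.24, and 14 had an unadjusted p under 0.05 on the lower side (background 7.9%). Without vehicle mouse 3, 4 of them were called lower, and 5 without vehicle mouse 4. Defining NK genes lay below the vehicle without a call: Ncr1 at -0.32, Klrb1c at -0.42 and Eomes at -0.50, the 3 being picked after their values were seen. The part of a change in NK cell number in the falls of Gzma, Ccl5 and Klra4 was not tested. Other cytotoxic products did not share the fall of Gzma in size, with Gzmb at -0.44, Prf1 at -0.41, Nkg7 at -0.46 and Gzmk at 0.01, none of them called and these too picked after their values were seen. In that list of 17, Srgn, the proteoglycan of granules, was called higher by 1.01 and Tnfsf10, the ligand TRAIL, by 0.62, and both are also expressed by cells other than lymphocytes. The call of Tnfsf10 was lost without high-dose mouse 16 or vehicle mouse 3.

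T cell genes showed 1 call in 25, Cxcr6, a chemokine receptor of tissue lymphocytes, at -0.62 (overlapping groups, lost in 7 of 9 fits without a mouse, those without vehicle mouse 4 or high-dose mouse 20 excepted), and a median of 0.03. B cell genes were higher as a list, with 19 of 21 above 0, a median of 0.31, 11 with an unadjusted p under 0.05 on the higher side (background 12.1%) and 2 called, Cxcr5, a follicle homing receptor (0.72), and Pou2af1, a B cell coactivator (0.68). Both calls are fragile. That of Cxcr5 was lost without high-dose mice 16, 17 or 18 or vehicle mice 3 or 4, and that of Pou2af1 without any single high-dose mouse or vehicle mice 3, 4 or 5. The median of the B cell list was larger within the second slide (median 0.60) than within the other 2 (0.16 and 0.18). H2-Oa, which B cells use to tune antigen loading, was the only called gene of 10 MHC class II genes (0.66, lost without high-dose mice 16, 17 or 18 or vehicle mice 3 or 4), and H2-Ab1 was the lowest at -0.26. No interferon-stimulated gene of 21 was called. Their median was -0.32, from Ifi44 (-0.84) to Bst2 (0.51), with -0.02, -0.61 and -0.07 within the 3 slides, the lowest in the slide of vehicle mice 3 and 4 and high-dose mouse 18.

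Chemokines and granulocyte genes moved singly. Cxcl5, a neutrophil attractant made by alveolar epithelium, was -2.35, -0.39, -0.02, -0.95 and -0.71 in vehicle and -3.30, -2.91, -3.09 and -2.72 in high-dose mice (4.36-fold lower, limma adjusted p = 0.0136). Vehicle mouse 1 lay well below the other vehicle mice, and the call was lost without high-dose mouse 16 (adjusted p = 0.0533), with the scanner software's ratios and with median centring. Ackr3, a scavenger receptor for Cxcl12, was 0.74, 0.57, 0.27, 0.62 and 0.90 in vehicle and 1.73, 1.57, 2.39 and 2.03 in high-dose mice, and was the only other called gene of 20 in the CXC list (2.48-fold higher, adjusted p = 1.42e-05). In the CC list of 26, Ccl6 was 0.85 higher and Ccl4 fell by 0.76 beside Ccl5. Ccl4 overlapped between the groups and lost its call without high-dose mouse 16 or 17, and Ccl6 without 16 or 20. Of 19 neutrophil genes only Mmp8, neutrophil collagenase, was called (0.98, overlapping, lost without high-dose mouse 16 or 17), with Csf3r the lowest at -0.39. No alveolar macrophage gene of 18 was called. The highest was Marco, a scavenger receptor, at 1.25 (adjusted p = 0.152), since the vehicle mice ran from 2.69 to 6.26 and the high-dose mice from 5.52 to 6.02, and the lowest was Car4 (-0.33).

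Endothelial genes moved in both directions, with 3 of 32 called higher and 3 lower and a median of 0.01. Mmrn2, multimerin 2, a matrix protein of the vessel wall, was 5.20, 5.05, 4.91, 5.36 and 5.24 in vehicle and 7.60, 6.38, 6.96 and 7.49 in high-dose mice, 3.88-fold higher (limma adjusted p = 2.38e-06). The vehicle mice were tight and the high-dose mice more widely spread. Emcn, the surface sialomucin endomucin, rose by 0.81 and Pecam1, the junction protein CD31, by 0.74. Gpihbp1, which carries lipoprotein lipase to the capillary lumen, was 6.73, 6.85, 6.03, 6.30 and 6.04 in vehicle and 5.44, 5.37, 5.30 and 4.81 in high-dose mice (2.23-fold lower, adjusted p = 0.000131). Ednrb, an endothelin receptor, fell by 0.98 and Notch1 by 0.69, the latter lost without vehicle mouse 1 or high-dose mice 18 or 20 and with another probe at -0.10. With median centring Mmrn2 was the only 1 of the 6 that was still called. Of other endothelial markers, Cdh5 (-0.10), Tek (0.31) and Vwf (-0.11), picked after their values were seen, were not called, while Pecam1 and Emcn were.

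Of the epithelial lists, cilia genes were the quietest, with none of 25 called, none at an unadjusted p under 0.05 and all between Tppp3 (-0.19) and Ccdc39 (0.21). No alveolar type 2 gene of 20 was called (median -0.09, 0.11 with median centring, from Slc34a2 at -0.37 to Etv5 at 0.34). Among 14 alveolar type 1 genes 13 lay below 0, 8 at an unadjusted p under 0.05, and Cav1, the coat protein of caveolae, which endothelium also expresses, was called, at 2.52, 2.77, 2.59, 2.93 and 2.75 in vehicle and 2.06, 1.86, 2.09 and 2.11 in high-dose mice (1.60-fold lower, limma adjusted p = 0.000101). The median of this list was -0.23, and 0.00 with median centring. In the airway secretory list of 17, Krt15, a basal cell keratin, was called higher by 0.87 (well above background on 3 of 5 vehicle arrays), and Reg3g was the lowest at -0.76.

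A minority of matrix genes was called lower. Of 26 fibroblast and collagen genes 5 were called lower and none higher, with a median of -0.22 (-0.05 with median centring, where none was called). Spon2, a secreted matrix protein, was -0.48, -1.40, -0.26, -1.13 and -0.25 in vehicle and -2.60, -2.68, -1.99 and -2.62 in high-dose mice (3.40-fold lower, limma adjusted p = 0.0006). Col3a1, a fibrillar collagen chain, was -0.98, -1.17, -0.12, -0.81 and -0.79 in vehicle and -1.86, -1.47, -2.13 and -1.12 in high-dose mice, 1.83-fold lower, and high-dose mouse 20 overlapped with vehicle mouse 2. Col1a1 fell by 0.64, Col1a2 by 0.65 and Dcn, decorin, by 0.90. Only the call of Spon2 held in all 9 fits without a mouse: 1 gene of the list was called without high-dose mouse 16, 1 without mouse 18 and 2 without vehicle mouse 3. Outside the list, Mfap2, a microfibril protein, was 2.39, 2.27, 2.06, 2.26 and 2.43 in vehicle and 0.93, 1.21, 1.09 and 1.15 in high-dose mice (2.28-fold lower), and its second probe gave -0.71.

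Several leading genes stood alone among their relatives. Car14, a membrane-bound carbonic anhydrase, was 2.75, 2.88, 2.38, 2.61 and 2.79 in vehicle and 1.00, 0.75, 0.73 and 1.04 in high-dose mice (3.49-fold lower, limma adjusted p = 2.12e-09), and none of the other 15 carbonic anhydrases was called (from -0.33 to 0.53). Celf5, an RNA-binding protein known best from neurons, was -2.32, -2.25, -2.51, -2.48 and -2.90 in vehicle and -0.21, -1.27, -0.86 and -0.63 in high-dose mice (3.36-fold higher), while its other 2 probes gave 0.24 and 0.40 and none of the other 8 genes of the Celf and Mbnl list was called. Of 20 genes of the integrated stress response, only Gdf15 and Sesn2 were called, both also p53 targets, and the list median was -0.11, with Phgdh the lowest at -0.32. Angptl4, an inhibitor of lipoprotein lipase, was 0.60, 0.53, 1.66, 1.65 and 0.44 in vehicle and -0.44, -0.39, -0.23 and 0.03 in high-dose mice (2.35-fold lower). It differed by -1.88 within the slide of vehicle mice 3 and 4 and by -0.98 and -0.41 within the other 2, and in its list of 29 genes of fatty acid oxidation and PPAR targets only Acot1, an acyl-CoA thioesterase, was also called (-0.73). No gene was called among 25 of cholesterol synthesis (Sc5d was the highest at 0.18) or 24 immediate early genes (Fosb at -0.44 to Ccn2 at 0.56).

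The other leading genes were Inka2 among the rises (log2 fold change 1.42, and 0.84 on its second probe) and Lhfpl3 (-1.21), Tmeff2 (-1.21), Rnu2-10, a U2 small nuclear RNA (-1.20), and Chd2, a chromatin remodeller (-1.12), among the falls. Other probes gave -0.63 for Lhfpl3, -0.24 for Tmeff2 and -0.40 to 0.08 for Chd2. Tmeff2 in vehicle mouse 5, at -0.32, lay just above the highest high-dose mouse, at -0.34.

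Few heat shock genes were called. Of 21 heat shock and cold-inducible genes 2 were called lower, and 17 lay below 0 with a median of -0.38 (-0.12 with median centring). Hspa1a, an inducible HSP70 chaperone, was 1.96, 3.43, 0.28, 2.81 and 1.24 in vehicle and 0.35, -0.23, -0.11 and -0.15 in high-dose mice (3.95-fold lower, limma adjusted p = 0.0232). Vehicle mouse 3 overlapped with high-dose mouse 16, and the call was lost in 5 of 9 fits without a mouse (vehicle mice 2 and 4, high-dose mice 17, 18 and 20). Hspa1b, its near-identical copy, has no matched probe here, and a probe of shared sequence cannot tell the pair apart. Hspa8, the constitutive chaperone, fell by 0.59 with overlapping groups, a call lost in 6 of the 9 fits (vehicle mice 1, 2 and 4, high-dose mice 17, 18 and 20). Cirbp, a protein induced by mild cold, was the highest of the list at 0.55.

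Markers of tissue that a random lung section can include were compared as well. Cardiomyocyte genes, of which none of 20 was called, varied among single mice of both groups rather than between the groups: Myl7 ran from 0.24 to 4.34 in vehicle and from 0.06 to 4.63 in high-dose mice. Adipose genes had a median of 0.34 with none of 12 called. Ucp1, the uncoupling protein of brown fat, was not well above background on any vehicle array and ran from 0.10 to 3.11 in high-dose mice (limma adjusted p = 0.0712), and the median of the list was 0.27, -0.30 and 1.04 within the 3 slides. Fabp4, which fat, macrophages and capillaries express, was in 3 of the lists at 0.71 and was not called. Erythroid genes had a median of -0.01, between Hba-a2 (-0.22) and Slc4a1 (0.27). The part of these tissues in the other results was not tested.

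Of the 28446 probes without a RefSeq name, the rule singled out 6. Those that rose were an intergenic transcript at chr1:163508244-163586072 on the forward strand (log2 fold change 1.37, limma adjusted p = 1.23e-08), a probe for ENSMUST00000048109 (1.30) and an intergenic transcript at chr17:29183003-29217681 on the reverse strand (1.28), both positions as the array design gives them on build mm9. The chr1 transcript was -0.90, -0.96, -0.82, -0.71 and -0.97 in vehicle and 0.68, 0.30, 0.75 and 0.25 in high-dose mice. Those that fell were the probe A_55_P2011341, which carries no accession in the array design (-2.32), and the probes for ENSMUST00000099683 (-1.37, but 0.29 in the Cy5 channel alone) and NM_053152 (-1.33). The paper's probe lists name the last Klra22, of the Ly49 family, and give A_55_P2011341 a transcript and a locus. A_55_P2011341 was 5.42, 4.74, 4.60, 3.72 and 5.11 in vehicle and 2.88, 1.36, 2.80 and 2.56 in high-dose mice. These values are close to those of Gzma, mouse by mouse. Among probes without an accession 64 of 2744 were called lower (2.33%) and 1 higher, against 0.805% and 0.399% of all probes, and among 16194 intergenic transcripts 70 were called lower (0.432%) and 20 higher (0.124%).

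Set against the other doses, the high dose differed in a small number of genes. The test against the low-dose mice themselves called 25 probes (0.0449%), of which 20 were higher (0.0359%) and 5 lower (0.00898%), and 17 genes (0.0823%), 13 higher (0.0629%) and 4 lower (0.0194%). The largest differences were in Celf5 (1.10), Cdkn1a (1.08), Mmrn2 (1.07), Ackr3 (0.91) and Ccng1 (0.80) on the higher side, and in Gpihbp1 (-0.91), Kif26b (-0.81), Clec4g (-0.74) and Mfap2 (-0.59) on the lower side, the only 4 genes called there. Of these Cdkn1a had the lowest limma adjusted p (0.00165). Ahrr (0.76, adjusted p = 0.000851) and Zmat3 (0.73, adjusted p = 0.00921) were also among the 17. These calls depended on single mice, with 4 probes called without high-dose mouse 16 or low-dose mouse 7, 7 without low-dose mouse 6, 11 without low-dose mouse 9, 14 without high-dose mouse 18 and between 17 and 23 otherwise.

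No probe was called between the high and the medium dose by limma, where 1036 probes were higher and 1048 lower at an unadjusted p under 0.05 (1.86% and 1.88%). Without high-dose mouse 20, 1 probe was called. All 3 doses share the same vehicle mice, so their fold changes over the vehicle are given side by side. For Gdf15 they were, in rising order of dose, 2.05, 2.78 and 2.88. For Cdkn1a they were 1.39, 2.09 and 2.47, for Ces2e 2.06, 2.30 and 2.67, for Cyp1b1 0.85, 1.15 and 1.58, and for Arntl -1.04, -1.37 and -1.59. Gpihbp1, at -0.25, -0.58 and -1.16, and Mmrn2, at 0.88, 1.57 and 1.96, took a larger part of their change between the low and the high dose, whereas Dbp, at 1.81, 2.17 and 2.22, was close to its high-dose value at the low dose. Gzma was -1.16, -0.95 and -2.25, and it was not called between the high and the medium dose.

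**Figure D4:**
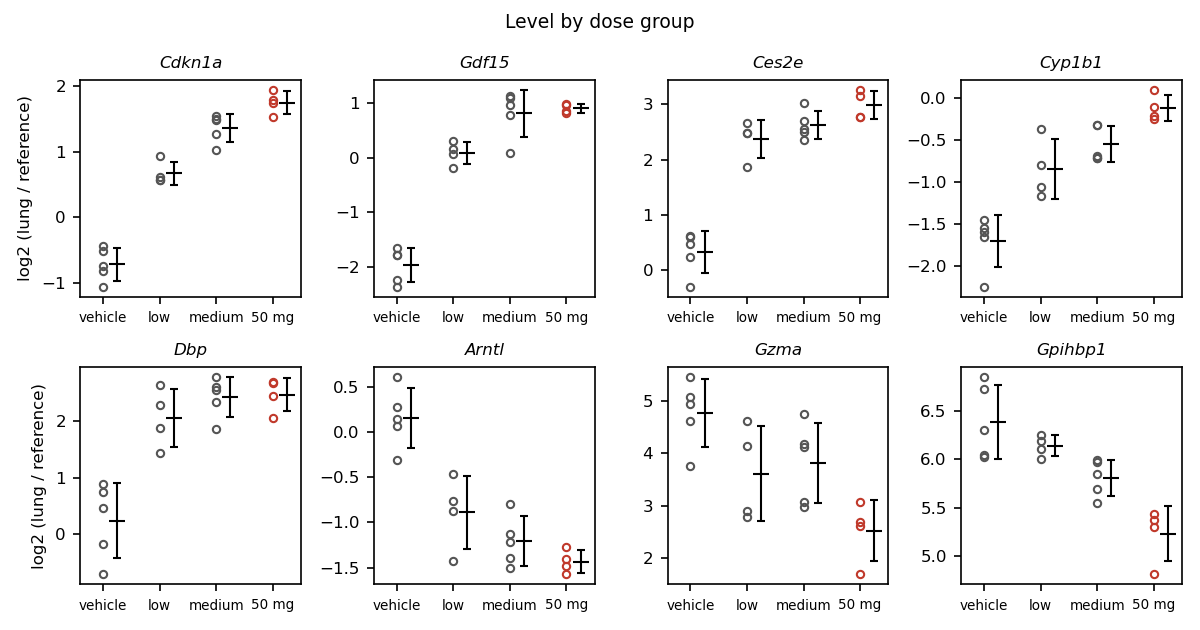
Circles are single mice, as the log2 ratio of lung to reference RNA, in the vehicle (n = 5), low (n = 4), medium (n = 5) and high dose group (50 mg, red, n = 4); the black marks are the mean ± SD. The means of Cdkn1a and Gpihbp1 move further with each dose, while that of Dbp is 2.05 at the low and 2.46 at the high dose.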

How the data were processed

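Lung RNA of 18 mice (5 vehicle, 4 low, 5 medium, 4 high) was hybridised, 1 mouse per two-colour Agilent array, with Cy5-labelled lung RNA against Cy3-labelled reference RNA and no dye swap. The authors deposited scanner files with median intensity per spot in both channels and the log10 ratio of red over green of Feature Extraction (11.0.1.1 per the file headers). They also deposited a table of normalized log2 ratios, used as an alternative. Loess was applied within arrays to log2 ratios of median intensities without background subtraction (limma 3.58.1, R 4.3.3). Control spots were left out, flagged outlier spots were set to missing (86 probes had a missing value) and spots of a probe were averaged. A model of 4 groups over 18 arrays was fitted to 55681 probes, each contrast with Benjamini-Hochberg adjustment. It stands in for the MAANOVA permutation test of the study's methods, which was not run. The code was tested on simulated data. Genes take the name of a RefSeq table (GRCm38.p6), which gave a symbol to 27235 probes, and the brightest probe.

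The members and lists were chosen with earlier results of these data known. Named genes were the 15 largest called rises and 15 largest falls without overlap, 3 unnamed probes each way, 6 further genes (Cdkn1a, Gdf15, Dbp, Ces2e, Cyp1a1 and Cyp1b1), every called list member, the highest and lowest member of a list without one, and up to 5 largest called dose differences each way. Alternatives changed the background correction, normalization, channel, slide, filter, samples and fold limit. RNA came from separate mice, so p-values measure the spread between mice. A few list members that are counted in the lists are not reported here by name.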

Additional observations from a re-analysis of the deposited data

Results flagged for a closer look

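In 2 of the 74 groups tested, 1 mouse stood apart from the others of its group, where chance would flag about 1 in 20 groups. Cyp1b1 in vehicle mouse 4 was -2.25, below the other vehicle mice at -1.65 to -1.45. Spon2 in high-dose mouse 18 was -1.99, above the other high-dose mice at -2.68 to -2.60.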

How the results depend on the processing

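The count of 670 probes called at the high dose stayed between 535 and 731 with normexp background correction, the authors' table, scaling or Aquantile between arrays, the Cy5 channel alone, a slide block, the background filter or the 2 groups alone, and between 548 (without high-dose mouse 16) and 682 when 1 mouse was left out. It was 80 with median centring, 1075 when the ratios of the scanner software were used and 2325 without a fold limit. Against the low dose, 25 probes became 0 with median centring, 13 when the ratios of the scanner software were used (the cause was not tested), and 4 to 23 without 1 mouse. Against the medium dose the count of 0 became 1 without high-dose mouse 20 and stayed 0 without each other mouse. Of 37 named genes and probes, 15 lost their call with median centring, among them Gzma (-1.92), and 2 when scanner ratios were used, Cxcl5 (-2.74, adjusted p = 0.108) and the probe for ENSMUST00000048109 (1.04, adjusted p = 0.163). Gpihbp1 lost it with scaling (-0.83, adjusted p = 0.0788) and Cxcl5 without high-dose mouse 16 (-2.03). Cyp1a1 was called with scaling (1.22, adjusted p = 0.0439) and without high-dose mouse 20. The probe for ENSMUST00000099683, A_55_P2465382, reversed from -1.37 to 0.29 with the Cy5 channel alone (adjusted p = 0.317). No paired analysis was possible because replicate numbers are those of single mice and none is shared between groups. The slide, which vehicle and high-dose mice did share, was used as a block instead and gave 702 probes. Probes near background have little room to fall, and 4 against 5 mice limit what can be called.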
